A study of Mus musculus with 10 samples.

Results

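Base excision repair (BER) genes were examined in cultured primary hepatocytes, the parenchymal cells of the liver, of C57BL/6 mice. The 10 members were chosen by name as core enzymes and partners of the pathway: the oxidized-base glycosylases Ogg1, Mutyh, Neil1 and Nthl1, the uracil glycosylase Ung, the endonuclease Apex1, the scaffold Xrcc1, the polymerase Polb, the ligase Lig3 and the strand-break sensor Parp1. All 10 were listed in the tables, which hold 18055 genes, and all 10 were among the 14097 genes that passed the filter on low counts. RNA was sequenced in 5 groups of 2 libraries. Vehicle cells received no free fatty acid (FFA) and no drug, PA cells received 200 μM palmitate for 24 h, and LA cells received 12 μM linoleate for 24 h. PA+NTP and LA+NTP cells were pretreated for 1 h with 0.4 NU/mL neurotropin (NTP), an extract of inflamed rabbit skin, before the same FFA. NTP without an FFA was not analysed here, so that its effect is seen only on top of PA or LA. Nothing in the sources used here says whether the 2 libraries of a group came from separate mice or cultures, and p-values then measure only the spread between these libraries, which may be technical.

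BER removes small base lesions, among them those left by reactive oxygen. A glycosylase cuts the damaged base from the sugar, Apex1 nicks the strand at the bare site, Polb fills the gap, and Lig3, held by Xrcc1, seals it, while Parp1 binds the open break. The liver burns fatty acids in mitochondria, and Ogg1, which removes 8-oxoguanine opposite cytosine, works on nuclear and on mitochondrial DNA. The question put to the data was whether the pattern of Ogg1, a gene that the study itself names from these libraries, was shared by the other steps of the pathway. Because the study chose Ogg1 on these samples, its own values are given as a description and not as independent evidence.

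Ogg1 lies on the plus strand of chromosome 6 from 113326972 to 113334877 (GRCm38), with 8 merged exons of 2187 bases. The other members lie on other chromosomes of the same build: Mutyh at 4:116807636-116819439, Neil1 at 9:57142788-57148688, Nthl1 at 17:24632680-24638838, Ung at 5:114130366-114139321, Apex1 at 14:50924949-50927188, Xrcc1 at 7:24546699-24573438, Polb at 8:22628119-22653464, Lig3 at 11:82781109-82804274 and Parp1 at 1:180568891-180600999, with Neil1 and Polb on the minus strand. The sequence before its start is shown because Ogg1 is the gene on which the comparison turns, and that of Neil1, another oxidized-base glycosylase, because it gave no call. Both were taken from RefSeq (GRCm38.p6), 5′ to 3′ on the strand of the gene, and cut to the part without an annotated exon. The Ogg1 stretch is chr6:113326748-113326971 on the plus strand, and the Neil1 stretch is chr9:57148306-57148555 on the minus strand, which lies inside the span of the annotated Neil1 gene. Capitals mark motifs searched on both strands.
Ogg1: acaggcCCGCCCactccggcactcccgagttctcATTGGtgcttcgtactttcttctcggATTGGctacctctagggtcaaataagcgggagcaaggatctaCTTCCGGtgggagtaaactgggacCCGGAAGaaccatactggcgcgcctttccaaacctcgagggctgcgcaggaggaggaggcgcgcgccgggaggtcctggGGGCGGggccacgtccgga
Neil1: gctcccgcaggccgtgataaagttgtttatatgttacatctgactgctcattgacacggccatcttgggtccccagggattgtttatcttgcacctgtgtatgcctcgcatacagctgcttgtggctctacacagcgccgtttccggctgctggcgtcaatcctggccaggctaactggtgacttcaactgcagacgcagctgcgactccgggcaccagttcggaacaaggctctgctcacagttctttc
The Ogg1 stretch held 6 motif matches in 224 bases, 2 each of the GC box (GGGCGG), the CCAAT box and the ETS core (CCGGAAG), none of which overlapped another, and 19 CpG. The Neil1 stretch held 0 matches and 12 CpG. Among windows of 250 bases before the start of all 32851 RefSeq promoters, 32.7% held a GC box, 33.8% a CCAAT box, 6.91% an ETS core, 6.02% an E-box (CACGTG) and 1.55% a CRE (TGACGTCA). Windows were found for 9 of the 10 members. An ETS core occurred in 2 of these 9, Ogg1 and Nthl1, a GC box in 6 and a CCAAT box in 5. The window of Nthl1, which like Neil1 gave no call, held 2 ETS cores, 2 CCAAT boxes and 1 GC box. An E-box occurred in 3 of 9, Apex1, Lig3 and Parp1, and a CRE in 0. These matches describe letters only.

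The level of each member was read as FPKM, the fragments scaled to transcript length and library size, which can be compared between genes. Apex1, the main endonuclease for bare sites, was the most abundant, with a mean of 68.5 FPKM over the 10 libraries. Polb followed at 27.5 FPKM, and the range of either over the libraries did not overlap that of its neighbors in the order. Parp1 at 19.6 FPKM and Lig3 at 17.8 FPKM overlapped each other. Xrcc1 at 10.3, Ogg1 at 9.11, Neil1 at 5.13, Ung at 4.44 and Nthl1 at 4.31 FPKM formed a run in which each overlapped its neighbor within the run. Mutyh, which removes adenine paired with 8-oxoguanine, was the lowest at 0.772 FPKM, overlapped no other member, and rested on 14 to 102 counts per library. Expected counts of Ogg1 ranged from 117 to 1190, and those of Apex1 from 1300 to 4791. The ratio of the highest to the lowest library was 2.77 for Ogg1 and 1.10 for Lig3, the extremes among the 10 members.

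**Figure D1:**
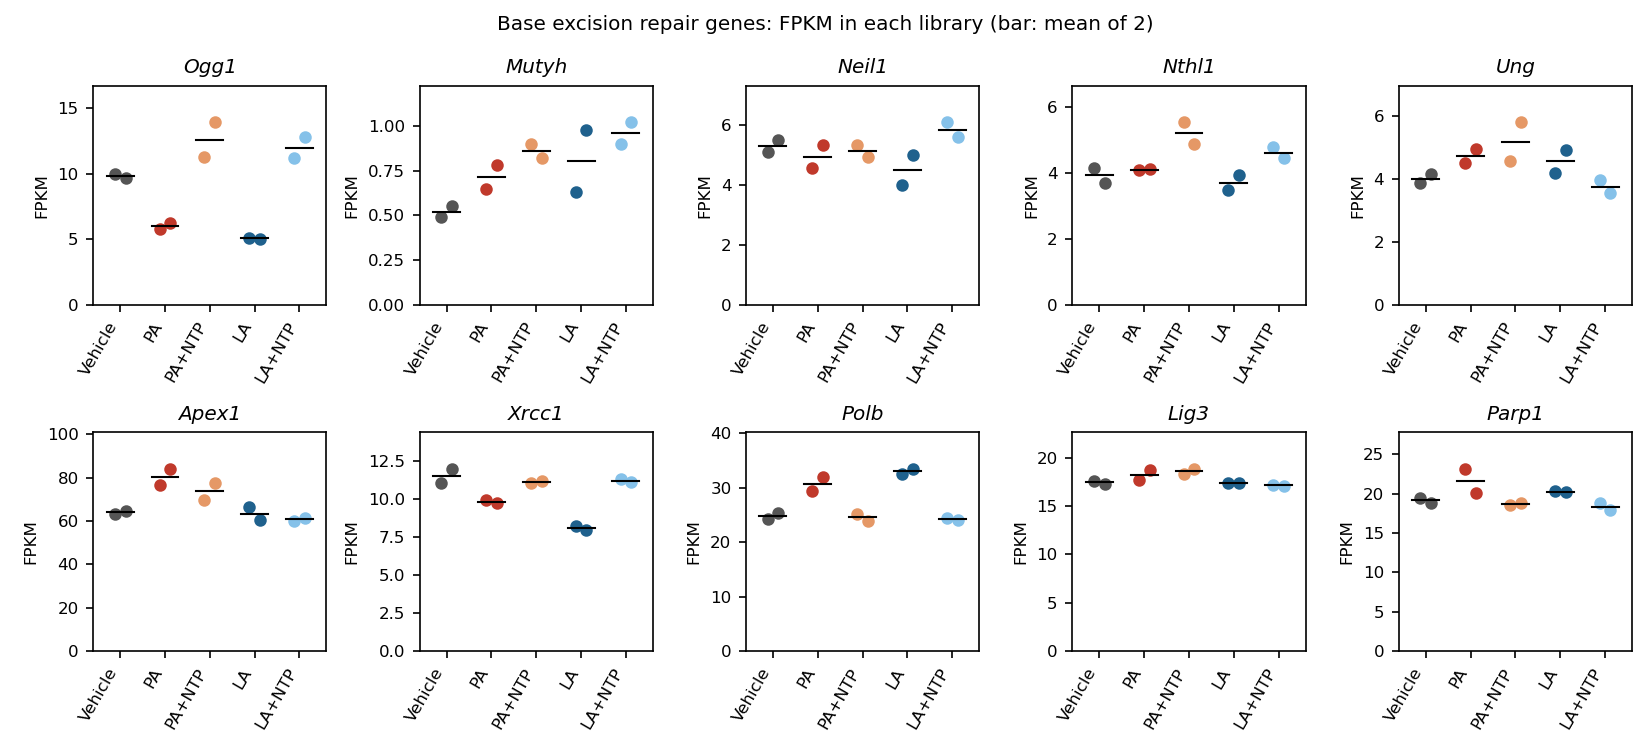
FPKM (vertical axis, from 0) of each of the 10 members in the 5 groups on the horizontal axis, with a point per library and a bar at the mean of 2. Ogg1 lay between 5.02 and 6.25 in the PA and LA libraries and between 11.21 and 13.93 in the NTP libraries, while Lig3 stayed between 17.13 and 18.85 throughout.

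Ogg1 was lower with either FFA and higher when NTP preceded the FFA. It was at 9.96 and 9.7 FPKM in Vehicle, 5.75 and 6.25 in PA, 5.12 and 5.02 in LA, 11.31 and 13.93 in PA+NTP, and 11.21 and 12.8 in LA+NTP. Every library with an FFA alone was below both Vehicle libraries, and every library with NTP was above them. In the edgeR quasi-likelihood test, the log2 fold change from Vehicle was −0.66 ± 0.13 (SE) with PA (adjusted p = 0.000843) and −0.91 ± 0.13 with LA (adjusted p = 8.39e-05). With NTP, Ogg1 rose by 1.00 ± 0.13 on the log2 scale over PA (adjusted p = 2.37e-05) and by 1.21 ± 0.12 over LA (adjusted p = 2.52e-06). Its values against Vehicle were 0.34 ± 0.12 in PA+NTP (adjusted p = 0.0922) and 0.30 ± 0.12 in LA+NTP (adjusted p = 0.268), and neither passed the test.

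Among the 10 members, 1 was called lower with PA, where a call needs an adjusted p under 0.05 and a change of at least 1.5-fold, and 8.92% of all genes tested were called lower. With LA, 1 of 10 was called lower beside 7.11% of all genes. With NTP, 1 of 10 was called higher over PA beside 8.74% of all genes, and 1 of 10 over LA beside 11.7%. In each case the member was Ogg1. No member was called in the other direction, where the shares of all genes were 6.0%, 3.53%, 5.11% and 7.57% in the same order of comparisons. The full pattern, lower with PA and LA and higher with NTP over each, was met by 1 member, Ogg1, and by 516 of 14097 genes (3.66%). By the adjusted p alone, without the fold, Ogg1 was again the 1 member that met it, beside 13.3% of all genes. These 4 comparisons share the PA, LA and Vehicle libraries, so they do not check each other. The counts of 1 in 10 are near the shares of all genes and set the list as a whole apart in no comparison. The median log2 fold change of the 10 members was 0.15 with PA, 0.03 with LA, 0.02 with NTP over PA and 0.09 with NTP over LA, beside −0.01, −0.01, 0.01 and 0.01 over all genes.

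**Figure D2:**
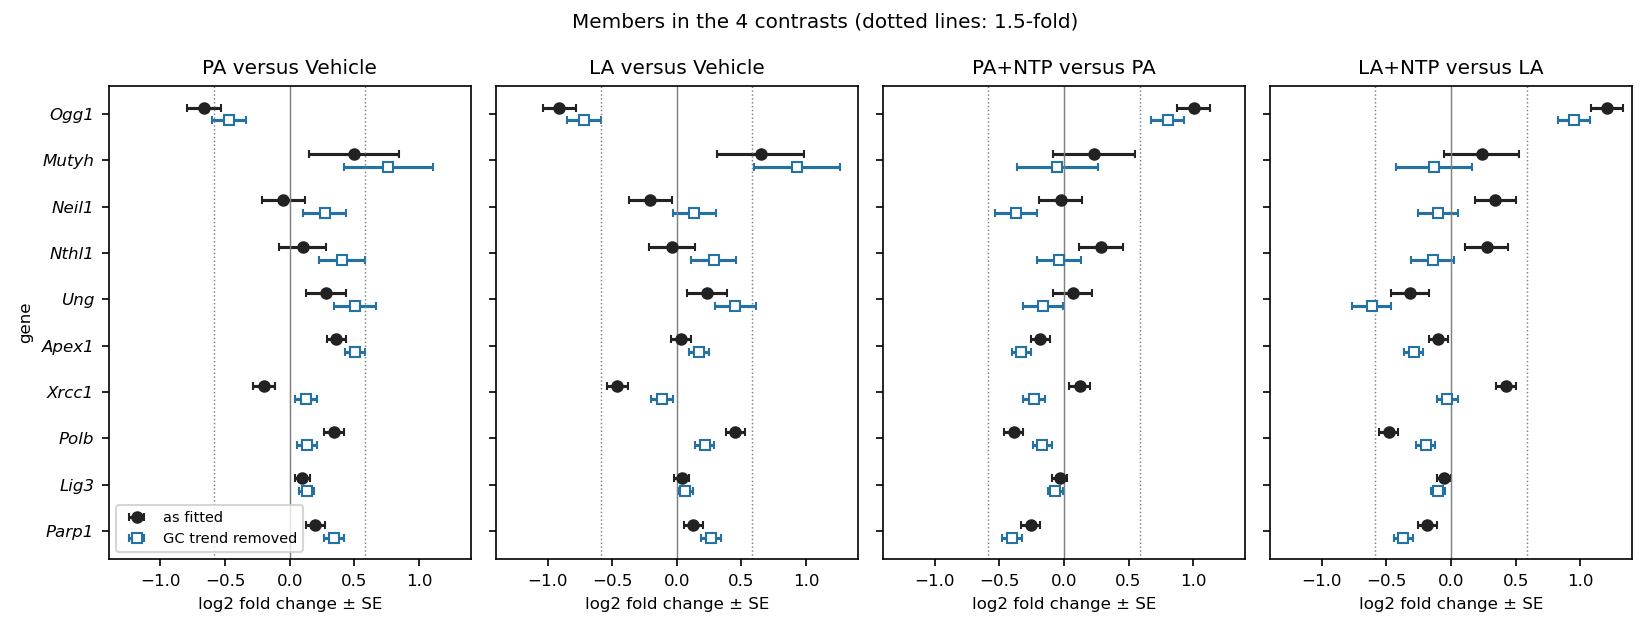
Log2 fold change with its SE (horizontal axis) of the 10 members (vertical axis) in the 4 comparisons, as fitted (filled) and with the trend on GC content removed (open); dotted lines mark 1.5-fold. Ogg1 was past 1.5-fold in all 4 as fitted, and in 3 of 4 with the trend removed, where it was −0.47 with PA.

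The other oxidized-base glycosylases gave no call. Neil1, which acts on oxidized pyrimidines and ring-opened purines, was at 5.07 and 5.5 FPKM in Vehicle, 4.55 and 5.32 in PA, 3.99 and 4.97 in LA, 5.32 and 4.91 in PA+NTP, and 6.07 and 5.58 in LA+NTP. The PA and Vehicle libraries overlapped, and the LA+NTP libraries lay above both LA libraries, with a log2 fold change of 0.34 ± 0.16 (adjusted p = 0.0851). Its 95% interval was −0.41 to 0.31 with PA and −0.56 to 0.15 with LA, both within 1.5-fold. The LA+NTP value passed in limma on log2(FPKM + 1) (0.32, adjusted p = 0.0347) and on log2(FPKM + 0.1) (0.38, adjusted p = 0.0329), and without LA 2 (0.49, adjusted p = 0.0487). Nthl1, which removes oxidized pyrimidines, was at 4.15 and 3.71 FPKM in Vehicle, 4.08 and 4.12 in PA, 3.49 and 3.93 in LA, 5.54 and 4.89 in PA+NTP, and 4.79 and 4.45 in LA+NTP. Its NTP libraries were above those with the same FFA alone, and the log2 fold changes of 0.29 ± 0.17 over PA and 0.28 ± 0.17 over LA did not pass (adjusted p = 0.198 and 0.19). Both passed in limma, at 0.28 (adjusted p = 0.0331) and 0.26 (adjusted p = 0.0447) on log2(FPKM + 1) and at 0.34 (adjusted p = 0.0347) and 0.31 (adjusted p = 0.0435) on log2(FPKM + 0.1). Mutyh was at 0.49 and 0.55 FPKM in Vehicle, 0.65 and 0.78 in PA, 0.63 and 0.98 in LA, 0.9 and 0.82 in PA+NTP, and 0.9 and 1.02 in LA+NTP. At these counts the interval of its change with LA ran from −0.07 to 1.37, so that changes past 1.5-fold could not be told from none. Ung, which removes uracil, was at 3.86 and 4.14 FPKM in Vehicle, 4.48 and 4.93 in PA, 4.19 and 4.92 in LA, 4.57 and 5.78 in PA+NTP, and 3.96 and 3.53 in LA+NTP. The LA+NTP libraries were below both LA libraries (log2 fold change −0.32 ± 0.15, adjusted p = 0.086). That value passed with the length trend removed (−0.40, adjusted p = 0.0411), under 1.5-fold.

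Within the summed FPKM of the 4 oxidized-base glycosylases, Ogg1 made up 50.6% and 49.8% in Vehicle, 38.3% and 37.9% in PA, and 38.7% and 33.7% in LA. In PA+NTP it made up 49.0% and 56.7%, and in LA+NTP 48.8% and 53.7%. The FFA libraries were all below the others in this share. The sum itself was 19.67 and 19.46 FPKM in Vehicle, 13.23 to 16.47 with an FFA alone and 22.97 to 24.55 with NTP.

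Downstream of the glycosylases, Xrcc1 and Polb changed by less than 1.5-fold and in opposite directions. Xrcc1, the scaffold that holds the ligase, was at 11.02 and 11.97 FPKM in Vehicle, 9.94 and 9.7 in PA, 8.23 and 7.96 in LA, 11.03 and 11.15 in PA+NTP, and 11.3 and 11.09 in LA+NTP. All 4 libraries with an FFA alone were below the rest. Xrcc1 fell with LA (log2 fold change −0.46 ± 0.08, adjusted p = 0.000508) and rose with NTP over LA (0.43 ± 0.08, adjusted p = 0.000461). Its values were −0.20 ± 0.08 with PA (adjusted p = 0.0629) and 0.12 ± 0.08 with NTP over PA (adjusted p = 0.249). The PA value passed with library-size scaling (−0.23, adjusted p = 0.0341) and with the FPKM filter (−0.23, adjusted p = 0.0318). It also passed in limma on log2(FPKM + 1) (−0.21, adjusted p = 0.0247) and on log2(FPKM + 0.1) (−0.22, adjusted p = 0.0233), each under 1.5-fold.

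Polb, the gap-filling polymerase, was at 24.25 and 25.47 FPKM in Vehicle, 29.36 and 32.08 in PA, 32.59 and 33.48 in LA, 25.27 and 23.85 in PA+NTP, and 24.5 and 24.13 in LA+NTP. The 4 libraries with an FFA alone were above the other 6. Polb rose with PA (0.34 ± 0.08, adjusted p = 0.00189) and with LA (0.45 ± 0.07, adjusted p = 0.000247), and it fell with NTP over PA (−0.39 ± 0.07, adjusted p = 0.000675) and over LA (−0.48 ± 0.07, adjusted p = 6.29e-05).

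Apex1 was at 63.44 and 64.76 FPKM in Vehicle, 76.42 and 84.04 in PA, 66.26 and 60.69 in LA, 69.89 and 77.49 in PA+NTP, and 60.25 and 61.62 in LA+NTP. It rose with PA (0.36 ± 0.07, adjusted p = 0.00127), and the LA value was 0.03 ± 0.07 (adjusted p = 0.767), with a 95% interval of −0.13 to 0.19. With NTP, Apex1 was at −0.18 ± 0.07 over PA (adjusted p = 0.0562) and −0.10 ± 0.07 over LA (adjusted p = 0.272). The PA+NTP and PA libraries overlapped. The Apex1 value over PA passed without the low-count filter (adjusted p = 0.0464) and with the replicate block (adjusted p = 0.047). With the length trend removed, both NTP values passed (−0.27, adjusted p = 0.00915, and −0.22, adjusted p = 0.0221), under 1.5-fold. Parp1, which binds strand breaks and builds poly(ADP-ribose), was at 19.48 and 18.89 FPKM in Vehicle, 23.16 and 20.09 in PA, 20.37 and 20.2 in LA, 18.52 and 18.88 in PA+NTP, and 18.84 and 17.91 in LA+NTP. It passed the test with PA (0.20 ± 0.07, adjusted p = 0.0408), with NTP over PA (−0.26 ± 0.07, adjusted p = 0.01) and with NTP over LA (−0.18 ± 0.07, adjusted p = 0.044). The higher PA library decided 2 of these: without PA replicate 1 the values were 0.10 (adjusted p = 0.332) and −0.16 (adjusted p = 0.102). The NTP value over PA also missed the threshold without PA+NTP replicate 1 (−0.22, adjusted p = 0.0605), and that over LA was lost in 6 of the 10 fits that left a library out, with Vehicle 1 or 2, LA 1 or 2, or LA+NTP 1 or 2 missing (−0.15 to −0.22, adjusted p of 0.0609 to 0.21). The PA value was lost in 7 of these 10 fits, with Vehicle 1 or 2, PA 1, LA 1 or 2, or LA+NTP 1 or 2 missing (0.10 to 0.22, adjusted p of 0.051 to 0.332). It was also lost with library-size scaling, the FPKM filter, both limma fits and only the groups compared (adjusted p of 0.0557 to 0.0816). The value over LA was also lost in DESeq2, with library-size scaling, the FPKM filter, both limma fits and the length trend removed (adjusted p of 0.051 to 0.13).

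Lig3, the ligase of the short-patch branch, was the least changed member. It was at 17.6 and 17.34 FPKM in Vehicle, 17.73 and 18.76 in PA, 17.37 and 17.37 in LA, 18.35 and 18.85 in PA+NTP, and 17.24 and 17.13 in LA+NTP. Its log2 fold changes lay between −0.06 and 0.10 in the 4 comparisons, and all 4 intervals were within 1.5-fold. Without the fold threshold, the members that passed the test were 1 lower and 3 higher with PA, 2 lower and 1 higher with LA, 2 lower and 1 higher with NTP over PA, and 2 lower and 2 higher with NTP over LA. The shares of all genes by that rule were 22.0% lower and 23.5% higher with PA, 20.5% and 20.8% with LA, 23.0% and 21.7% with NTP over PA, and 25.6% and 25.9% with NTP over LA.

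The NTP groups were also set against Vehicle, and 0 of 10 members were called in either group. Of all genes, 1.64% were called lower and 1.21% higher in PA+NTP, and 0.0355% lower and 0.0567% higher in LA+NTP. At an unadjusted p under 0.05, 5 members passed in PA+NTP, beside 24.7% of all genes, and 2 in LA+NTP, beside 14.3%, and DESeq2 called 0 as well. Whether NTP acted differently on top of PA than on top of LA was tested directly. No member passed by edgeR (lowest adjusted p = 0.639, for Xrcc1, with 1 member at an unadjusted p under 0.05) or by DESeq2, which called 7 genes among all tested where edgeR called 0 (0.0%) and 1029 had an unadjusted p under 0.05. For Ogg1 the difference of the effects, PA minus LA, was −0.20 on the log2 scale with a 95% interval of −0.58 to 0.18.

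The log2 ratio of Ogg1 to each other member moved with treatment. The difference between the 4 libraries with NTP and the 4 with an FFA alone was smallest against Nthl1, 0.82, and largest against Polb, 1.54. For all 9 partners the lowest NTP library was above the highest FFA library. The same held for 87.9% of 11093 genes with a mean of at least 1 FPKM, so it says little about these partners. The difference was 0.83 against Xrcc1, 0.93 against Neil1, 1.15 against Lig3 and 1.24 against Apex1. After removal of the GC trend described next, the differences lay between 0.95 and 1.26.

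**Figure D3:**
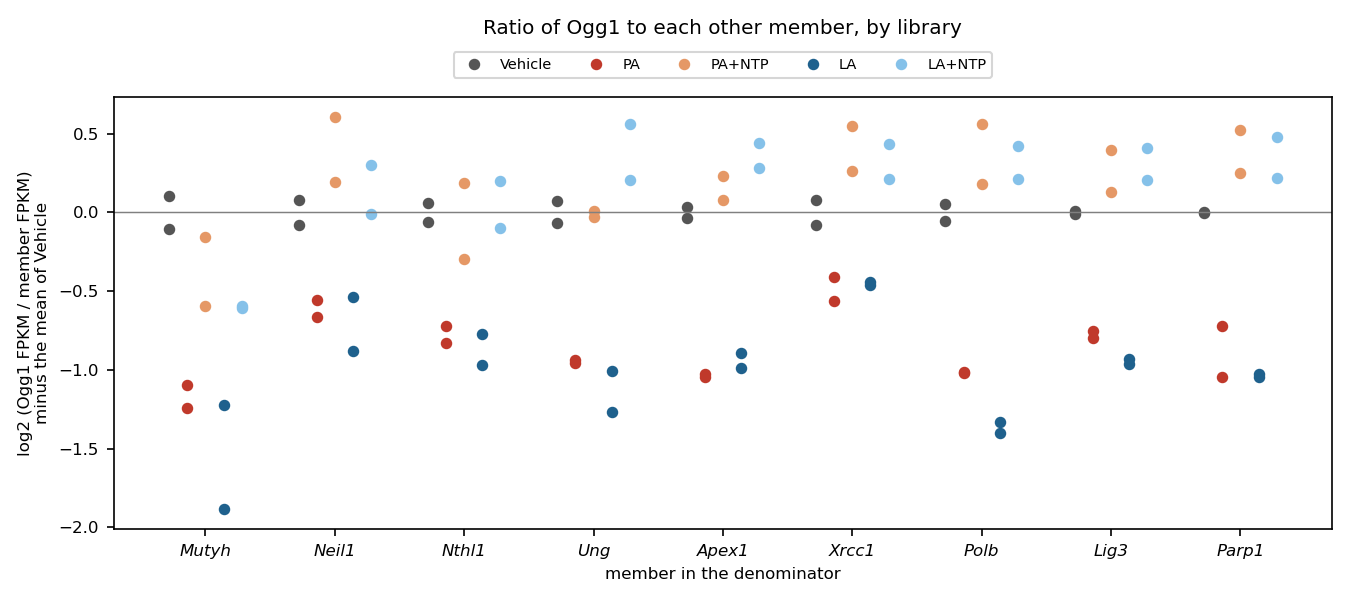
Log2 ratio of Ogg1 to each of the 9 other members (horizontal axis), minus the mean of the 2 Vehicle libraries, with a point per library colored by group. The PA and LA points lie below 0 for every partner and below the NTP points of the same partner.

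A trend on GC content ran through these libraries and touched the members unequally. Across 13409 genes, the level of each gene relative to its own mean over libraries correlated with its transcript GC content at a Spearman rho of −0.485 and −0.487 in PA and −0.572 and −0.576 in LA, and at 0.348 to 0.575 in the 6 Vehicle and NTP libraries. Genes within a library are not independent, so no p is given. The median GC content was 54.5% for the members and 50.6% for all genes tested. Polb, at 44.8%, was the most AT-rich member, and Xrcc1, at 57.1%, the most GC-rich, while Ogg1 had 54.1%.

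With the trend removed, the changes of Xrcc1 and Polb no longer passed the test. Xrcc1 was at 0.13 with PA, −0.11 with LA, −0.23 with NTP over PA and −0.03 with NTP over LA, with adjusted p of 0.276, 0.397, 0.0538 and 0.833. Polb was at 0.13, 0.22, −0.17 and −0.20, with adjusted p of 0.194, 0.0567, 0.102 and 0.0522. Ogg1 remained at −0.72 with LA (adjusted p = 0.00213), 0.80 with NTP over PA (adjusted p = 0.000434) and 0.95 with NTP over LA (adjusted p = 0.000114). With PA it was at −0.47 (adjusted p = 0.015), under 1.5-fold, so that it was no longer called there and no member met the full pattern, which 1.09% of all genes still met. Parp1 was at 0.34, 0.26, −0.40 and −0.37, with an adjusted p under 0.05 in all 4 comparisons, and Apex1 at 0.51, 0.17, −0.33 and −0.29, passing in all but LA. Ung then passed with PA (0.50, adjusted p = 0.0268), under 1.5-fold, and was called lower with NTP over LA (−0.61, adjusted p = 0.00746). The members called after removal of the trend were thus 0 lower and 0 higher with PA, beside 4.85% and 3.86% of all genes, and 1 and 0 with LA, beside 2.33% and 1.23%. With NTP they were 0 lower and 1 higher over PA, beside 2.55% and 3.61%, and 1 and 1 over LA, beside 2.66% and 3.64%. Whether the trend is technical or part of the response was not tested.

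**Figure D4:**
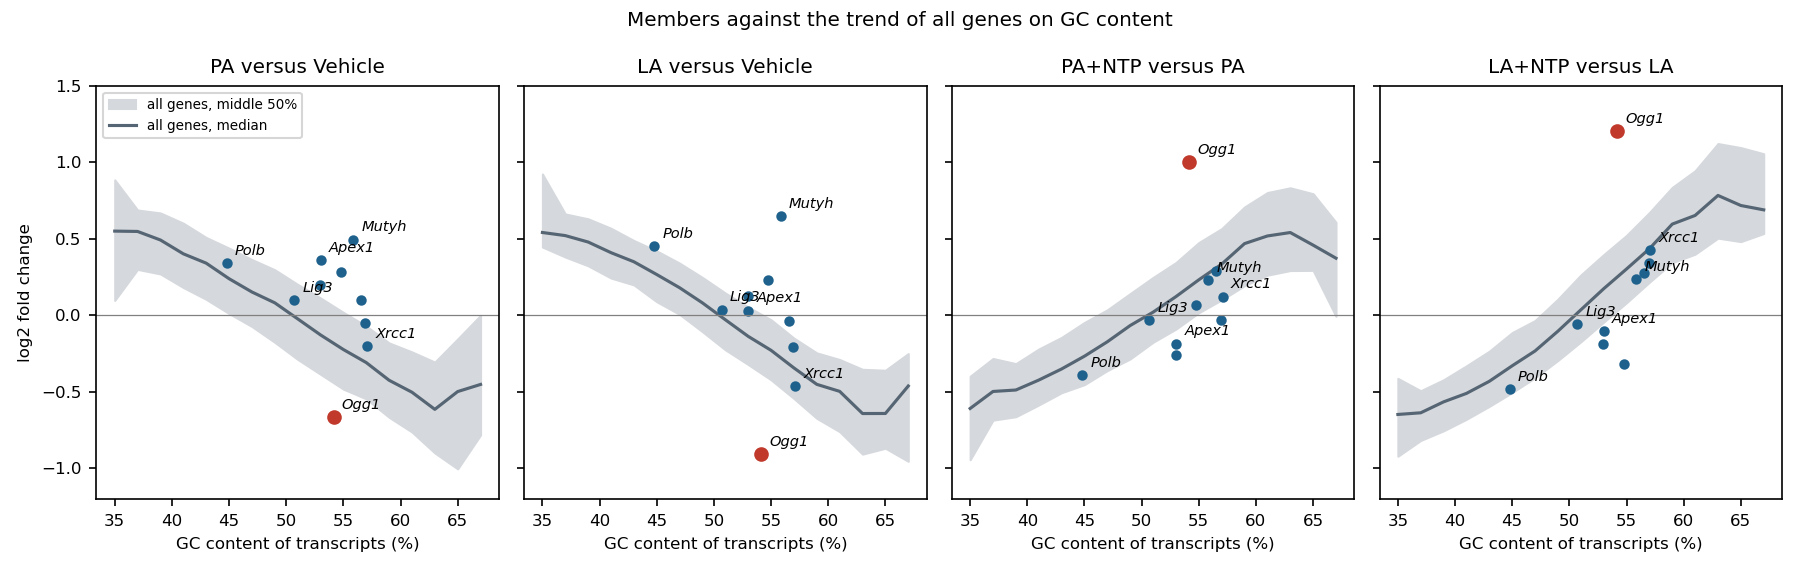
Log2 fold change (vertical axis) against transcript GC content in percent (horizontal axis) for the 4 comparisons, with the median and the middle 50% of all genes in bins of GC content and points for the 10 members. Xrcc1 lies within the middle 50% of genes of its GC content in all 4 panels and Polb in all but LA, where it lies above, while Ogg1 lies outside in all 4.

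Exons of 5 members overlap those of another gene, and no source used here states that the libraries kept the strand. The overlap is over 10% of the exonic bases for Ogg1, Apex1 and Lig3. The exons of Ogg1 overlap those of Camk1, a kinase gene on the opposite strand, over 232 bases, 10.6% of its exonic bases. Camk1 was at 31.93 to 38.64 FPKM, and its log2 fold changes were 0.04 with PA, −0.03 with LA, −0.28 with NTP over PA and −0.13 with NTP over LA, none called. Apex1 shares 61.7% of its exonic bases with Pip4p1 on the opposite strand and 4.75% of its 31-base sequences with Gm7063, and Lig3 shares 25.1% with Rffl. In the order given for Camk1, Pip4p1 was at 0.05, −0.16, 0.19 and 0.27, and Rffl at 0.22, 0.03, −0.04 and −0.01, none called. The levels of Ogg1, Apex1 and Lig3 are uncertain to the extent of these overlaps. The overlaps of Polb with Gm26909 (1.14%) and of Parp1 with Mir6904 (0.132%) are smaller, and Neil1 and Polb share 1.85% to 3.10% of their 31-base sequences with other transcripts on a strand.

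The 5 genes nearest to Ogg1 over the 10 libraries stood in none of the repair lists. By the root mean square difference of centered log2 CPM (counts scaled to library size), over 11115 genes with a mean of at least 1 FPKM, they were Sf3b4 (0.07), Ubald1 (0.08), Mnt (0.08), Tuba1b (0.08) and Wbp2 (0.09). Sf3b4, a splicing factor subunit, was at 45.65 and 43.36 FPKM in Vehicle, 24.15 and 28.07 in PA, 20.51 and 20.44 in LA, 49.36 and 61.7 in PA+NTP, and 51.7 and 55.68 in LA+NTP. Among the members the nearest was Xrcc1, at rank 2284, followed by Nthl1 at 3061 and Neil1 at 3621, and the farthest was Polb, at rank 9222. After the GC trend was removed, Sf3b4 kept rank 1, Wbp2 had rank 2, Tuba1b 18, Ubald1 50 and Mnt 358, and the nearest members were Lig3 at rank 5154 and Xrcc1 at 5783.

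Outside the 10 members, 81 repair genes in 7 lists were examined, and 0 met the Ogg1 pattern, beside 3.66% of all genes. Called genes were 0 lower and 4 higher with PA, 1 and 1 with LA, 3 and 4 with NTP over PA, and 5 and 3 with NTP over LA. Of all genes tested, PA lowered 8.92% and raised 6.0% by the same rule, LA 7.11% and 3.53%, NTP over PA 5.11% and 8.74%, and NTP over LA 7.57% and 11.7%. The other glycosylases gave 2 called genes of 6. Neil2, which acts on oxidized bases in transcribed DNA, was at 1.31 and 1.48 FPKM in Vehicle, 2.9 and 2.76 in PA, 1.65 and 1.5 in LA, 1.82 and 2.06 in PA+NTP, and 1.08 and 0.95 in LA+NTP. It rose with PA (log2 fold change 1.04 ± 0.20, adjusted p = 0.000857) and was lower with NTP over PA (−0.59, adjusted p = 0.0217) and over LA (−0.69, adjusted p = 0.0106). The last 2 calls were lost without PA 1 (−0.56), PA 2 (−0.65) or PA+NTP 1 (−0.48), and without LA 1 (−0.62) or LA+NTP 2 (−0.60). Over PA the call was also lost with library-size scaling (−0.54), the FPKM filter (−0.56) and limma on log2(FPKM + 1) (−0.38) and log2(FPKM + 0.1) (−0.52), and over LA with the former limma fit (−0.35). Mbd4, a thymine glycosylase for mismatches at CpG, was higher with NTP over PA (0.67, adjusted p = 0.00551), and that value was 0.46 without PA+NTP 1 (adjusted p = 0.0671).

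Among 22 further genes of end processing, synthesis and ligation, Aptx moved opposite to Ogg1. It was the 1 gene of the 81 called so, and the share of all genes called so is not given here. Aptx, which removes AMP left on DNA ends by a failed ligation, was at 1.39 and 1.48 FPKM in Vehicle, 2.29 and 2.29 in PA, 2.25 and 2.17 in LA, 1.39 and 1.52 in PA+NTP, and 1.47 and 1.45 in LA+NTP. All 4 libraries with an FFA alone were above the rest. Its log2 fold changes were 0.70, 0.67, −0.71 and −0.64 in the order of comparisons above, all called. They were 0.65, 0.60, −0.66 and −0.56 with the GC trend removed, where the last was under 1.5-fold and not called, so that the pattern opposite to Ogg1 was lost. In limma on log2(FPKM + 1), a scale that understates the change of low genes, they were 0.43, 0.40, −0.42 and −0.38, none called, and the last was also under 1.5-fold on log2(FPKM + 0.1) (−0.57). Pold1, the catalytic subunit of polymerase delta, was higher with NTP over PA (0.61) and over LA (0.62), and Pold4, a small subunit, with NTP over LA (0.72). These were 0.10, −0.05 and 0.27 with the GC trend removed and were not called. Aplf, a factor of break ends, was higher with NTP over PA (0.61, and 0.70 with the trend removed). Without PA 1 or PA+NTP 1 the Pold1 value over PA was 0.48 or 0.47, and without PA 2 or PA+NTP 1 that of Aplf was 0.50 or 0.54, all under 1.5-fold.

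The 12 genes of mitochondrial DNA replication and maintenance held 2 called genes. Polrmt, the mitochondrial RNA polymerase, was lower with LA (−0.68) and higher with NTP over LA (0.82). Ssbp1, which coats single-stranded mitochondrial DNA, was higher with PA (0.64) and lower with NTP over LA (−0.61). None of these 4 values was called with the GC trend removed (−0.23, 0.24, 0.37 and −0.25). Without LA 1 the first was −0.54, without Vehicle 2 the Ssbp1 value with PA was 0.57, and without LA 2 that with NTP over LA was −0.58, all under 1.5-fold. Removal of the GC trend also brought calls of other genes in this list. They were 2 higher with PA, 1 higher with LA and 1 lower with NTP over LA, beside 3.86%, 1.23% and 2.66% of all genes. The 6 genes that clean the nucleotide pool, which keep oxidized nucleotides out of DNA, gave 0 calls in the 4 comparisons. By the adjusted p alone, 1 was lower and 2 higher with PA, and 0 and 1 with LA. The shares of all genes were 22.0% and 23.5% with PA, and 20.5% and 20.8% with LA. With NTP, 1 was lower and 0 higher over PA, beside 23.0% and 21.7%, and 3 and 1 over LA, beside 25.6% and 25.9%. With the GC trend removed, 1 of the 6 was called higher with PA and 1 lower with NTP over LA, beside 3.86% and 2.66% of all genes.

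Of the other pathways, nucleotide excision repair (13 genes) gave 1 call, Ercc1, higher with NTP over PA (0.62). Mismatch repair (8 genes) gave Pms1, higher with PA (0.62) and lower with NTP over PA (−0.62) and over LA (−0.64). Double-strand break repair (14 genes) gave Atr, a damage kinase, lower with NTP over LA (−0.81). By the adjusted p alone, 11 of 14 genes of double-strand break repair were higher with PA and 9 with LA, and 10 and 11 were lower with NTP over PA and LA, beside the shares of all genes given above. Their medians were 0.37, 0.28, −0.33 and −0.41, and 0.14, 0.03, −0.10 and −0.13 with the GC trend removed. Ercc1, Pms1 and Atr were then at 0.26, at 0.50, −0.49 and −0.46, and at −0.20, none called. The Ercc1 call was also lost without PA 1 (0.55) or PA+NTP 2 (0.41). The 3 Pms1 calls were lost without Vehicle 1 (0.57) or PA 1 (0.50), without PA 1 (−0.50) or PA+NTP 1 (−0.57), and without LA 2 (−0.53) or LA+NTP 1 (−0.54).

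**Figure D5:**
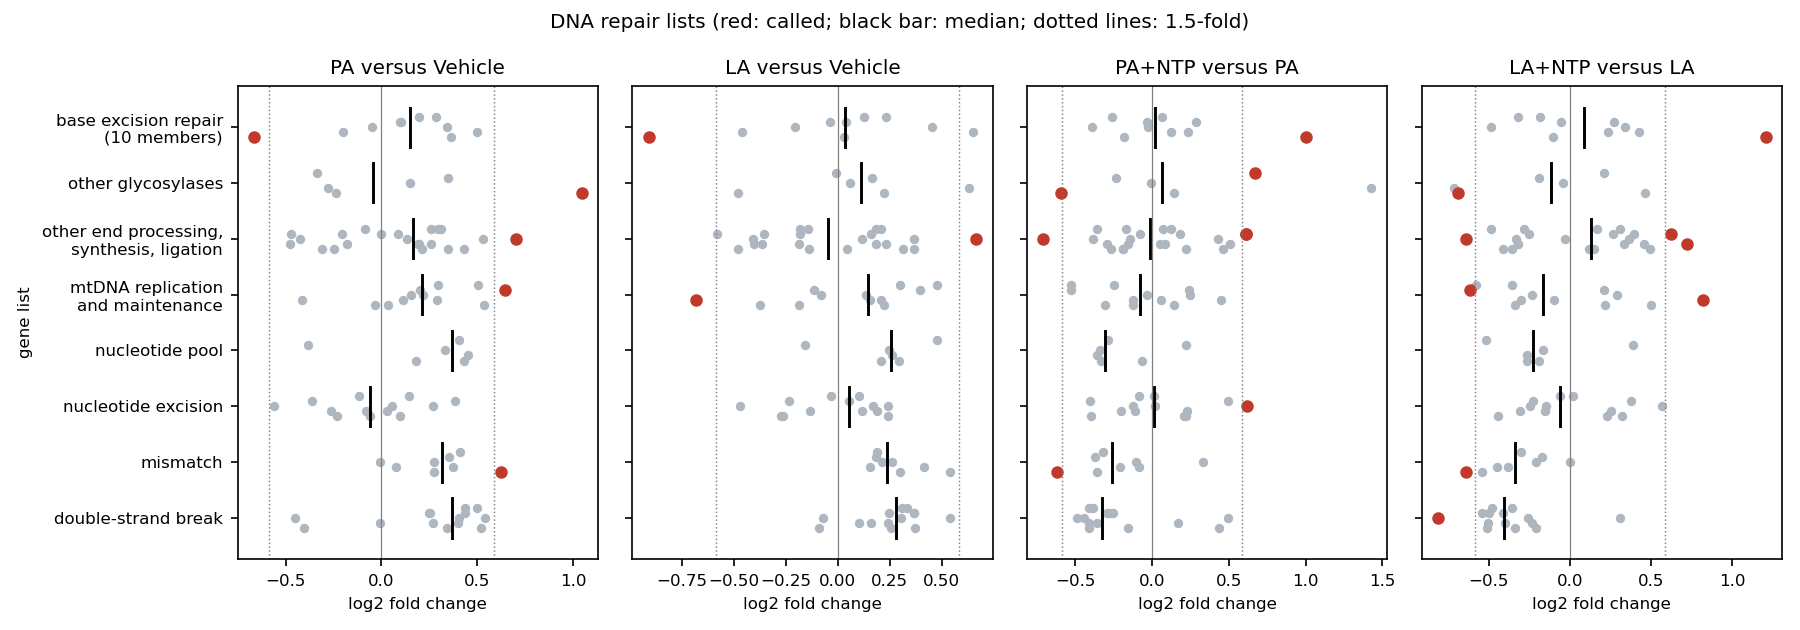
Log2 fold change (horizontal axis) of each gene in the 10 members and 7 other repair lists (vertical axis) for the 4 comparisons, with called genes in red, a black bar at the list median and dotted lines at 1.5-fold. Ogg1 is the only called member in each panel, and no other list holds a gene that is called lower with PA.

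Genes that answer DNA damage and cell division were read beside the members. Of 10 p53 targets, Bbc3, a death gene, was lower with PA (−0.84) and LA (−1.0) and higher with NTP over LA (1.01), and Phlda3 was higher with NTP over LA (0.67). Removal of the GC trend took these to −0.03, −0.14, −0.07 and 0.13, none called. Gadd45a, a stress gene, was higher with PA (0.68) and lower with NTP over LA (−0.66), and was at 0.48 with LA and −0.53 with NTP over PA, not called. With the trend removed it was at 1.07 with PA, 0.89 with LA, −0.94 with NTP over PA and −1.19 with NTP over LA, all called. These directions are opposite to those of Ogg1, which itself was not called with PA once the trend was removed. Of 8 proliferation genes, Mki67 was lower with PA (−0.73) and higher with NTP over PA (0.89) at 0.5 to 1.13 FPKM. Mcm5 was lower with LA (−0.64) and higher with NTP over LA (0.83), and Ccna2 was higher with PA (0.71) and LA (0.72). The Mcm5 value with LA was −0.50 without Vehicle 2 and −0.53 without LA 2, under 1.5-fold. After removal of the GC trend, Mcm5 was at −0.49 with LA and Ccna2 at 0.57 and 0.56, no longer called. Ccnb1 was called with LA (−1.57) and NTP over LA (2.0) at 0.05 to 0.6 FPKM, and these calls were lost without LA 2 (−1.07 and 1.5), the first also without Vehicle 1 (−1.51) or Vehicle 2 (−1.64).

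The libraries held 13142588 to 60046937 expected counts. Hepatocyte markers summed to 2201 to 3928 FPKM, lowest in PA (2201 to 2433, beside 3111 to 3298 in Vehicle), with all 7 detected. Of the 6 Kupffer cell markers, Clec4f and Vsig4 were under 1 FPKM in every library, and the sum was 208 in both Vehicle libraries, 201 to 237 in PA, 266 to 295 in PA+NTP, 125 to 130 in LA and 181 to 196 in LA+NTP. That sum was almost all Cd68, at a mean of 203 FPKM in Vehicle and 124 in LA, while Cd5l was at 2.77 and 2.68, and Marco at 0.625 and 0.68. In PA, Cd5l was at 1.23 and Marco at 3.42. Endothelial markers (6 genes) summed to 28.3 to 41.4, stellate markers (6 genes, Lrat and Pdgfrb under 1) to 19.2 to 23.1, and lymphocyte markers (5 genes, all under 1) to 0.4 to 0.79. The stellate sum was lower in PA (19.2 to 20.0) than in Vehicle (21.9 to 22.4) and PA+NTP (20.1 to 22.6), as Ogg1 was. Dcn, which made up most of that sum, did not fall with PA, at means of 12.81 FPKM in Vehicle and 12.96 in PA. Col3a1 fell from 4.635 to 3.445, and Col1a1, Pdgfrb and Lrat were also lower in PA. Des was at 1.655 in Vehicle and 1.6 in PA. In LA the stellate sum was 22.4 to 22.5 and overlapped that in Vehicle. Of the 6 stellate genes, 3 were called lower with PA and 1 with LA, beside 8.92% and 7.11% of all genes. With NTP, 2 were called higher over PA and 2 over LA, beside 8.74% and 11.7%. With the GC trend removed, 2 were called lower with PA, and 0 were called with LA or with NTP. Cholangiocyte markers (5 genes) summed to 407 to 704 FPKM, with Krt19, Krt7 and Epcam under 1. Cd68 and the endothelial sum were lower in LA (endothelial 29.4 to 32.4) than in Vehicle (38.2 to 38.3) and LA+NTP (38.8 to 41.4), as Ogg1 was. Of the endothelial markers, Pecam1, Stab2, Cdh5 and Clec4g had lower means in LA than in both of those groups. Kdr and Lyve1 did not. Kdr was at 4.535 FPKM in Vehicle, 4.03 in LA and 3.83 in LA+NTP, and Lyve1 at 2.46, 2.885 and 2.845. In PA the endothelial (28.3 to 29.6), hepatocyte and cholangiocyte (407 to 529) sums were lower than in Vehicle (cholangiocyte 583 to 616) and in PA+NTP (30.2 to 34.7, 2668 to 2982 and 569 to 704), as Ogg1 was. The hepatocyte sum was mostly Alb, at a mean of 2027 FPKM in PA and 2461 in PA+NTP. Spp1, at 460 and 623, made up most of the cholangiocyte sum. From PA to PA+NTP, the hepatocyte markers Cps1 (2.8 to 2.175), Tat (5.92 to 4.27) and Cyp2e1 (20.39 to 17.845) fell. So did the endothelial markers Kdr (3.335 to 2.89) and Clec4g (0.59 to 0.445). Apoa1, Ttr, Hnf4a, Pecam1, Stab2 and Cdh5 rose with Alb, and Lyve1 was at 2.18 and 2.205. The part of these marker changes in the Ogg1 result was not tested. In bulk RNA, fewer cells of a type and less RNA per cell cannot be told apart.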

How the data were processed

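The authors deposited 1 table per library, which lists each gene with an expected count and an FPKM value, made with HISAT, Bowtie2 and RSEM on mm10 per the submitters' processing notes. The deposited expected counts are not normalized between libraries, and the deposited FPKM values are scaled for gene length and library size. Of 18055 gene IDs, 17998 were matched to symbols by ID and 11 by RefSeq accession. Expected counts were rounded and fitted with edgeR 4.0.16 in R 4.3.3 over all 10 libraries (TMM, filterByExpr, quasi-likelihood F test, Benjamini-Hochberg adjustment over 14097 genes). A gene was called at an adjusted p under 0.05 and at least 1.5-fold. The exact test of 2 libraries against 2 cannot go below 0.333, so no permutation test of 1 group against another was used. Exact tests of the 4 NTP libraries against the 4 with an FFA alone were also run and are not relied on here. On simulated data for PA against Vehicle, 199 of 200 genes changed by 2-fold or more, among 14097, were recovered with 1 false call. Recovery of changes under 2-fold, which include those near the 1.5-fold threshold, was not tested. Alternatives were DESeq2 1.42.0, limma 3.58.1 on log2(FPKM + 1) and log2(FPKM + 0.1), other scaling and filters, no fold threshold, only the groups compared, a replicate block, removal of the trend on GC content or length (loess, span 0.4), and each library left out. The ratios of Ogg1 with the GC trend removed were added after the values were seen. Ratios are given without a test, since the study chose Ogg1 on these libraries. Coordinates, exons and GC content came from GENCODE M21 (GRCm38) and promoter windows from RefSeq. Replicate numbers follow the labels, which differ from those in the deposited files. Named genes were all members, at most 4 called genes per list by size of change, and the 5 genes most like Ogg1. The members and lists were chosen with earlier results of these data known.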

Additional observations from a re-analysis of the deposited data

How the results depend on the processing

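Ogg1 kept its direction in all 22 alternative fits and its call in all 4 comparisons except PA against Vehicle with the GC trend removed, alone or with the replicate block. No count of called members changed when any of the 10 libraries was left out: the Ogg1 log2 fold change then ran from −0.73 to −0.62 with PA, −0.93 to −0.89 with LA, 0.81 to 1.16 with NTP over PA and 1.1 to 1.3 with NTP over LA. With the GC trend removed, alone or with the replicate block, Ogg1 with PA was at −0.47 and −0.48, so that 0 members were lower with PA and 0 met the full pattern, and 1 member (Ung) was lower with NTP over LA. With the length trend removed, 1 member (Polb) was lower with NTP over LA. Without the fold threshold, 3 members were higher with PA, 2 lower and 1 higher with LA, 2 lower with NTP over PA, and 2 lower and 2 higher with NTP over LA. The replicate block alone changed no call of a member. Same-numbered libraries of different groups deviated together at r of −0.07 to 0.13, over 0.1 in 2 of 10 pairs of groups, so the numbers were not read as pairs.

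Values that changed sign, none of them called after the change, were these. With the GC trend removed, and with the replicate block and GC trend removed, they were with PA Neil1 (0.27 and 0.27) and Xrcc1 (0.13 and 0.13), with LA Neil1 (0.14 and 0.14) and Nthl1 (0.28 and 0.28), with NTP over PA Mutyh (−0.052 and −0.016), Nthl1 (−0.036 and −0.042), Ung (−0.16 and −0.15) and Xrcc1 (−0.23 and −0.23), and with NTP over LA Mutyh (−0.13 and −0.14), Neil1 (−0.10 and −0.10), Nthl1 (−0.14 and −0.14), Xrcc1 (−0.028 and −0.030), Pold1 (−0.046 and −0.044) and Bbc3 (−0.074 and −0.074). With the length trend removed, Neil1 with PA was 0.0052 and Nthl1 with LA 0.060. With library-size scaling, limma on log2(FPKM + 1) and limma on log2(FPKM + 0.1), Apex1 with LA was −0.014, −0.015 and −0.015, Lig3 with LA −0.0084, −0.0078 and −0.0082, Lig3 with NTP over PA 0.026, 0.027 and 0.028, and Neil1 with NTP over PA 0.031, 0.045 and 0.054, the last also 0.0021 with a filter at a mean FPKM of 1. With a library left out, the ranges that crossed 0 were −0.029 to 0.10 for Apex1 and −0.12 to 0.056 for Nthl1 with LA, −0.18 to 0.036 for Neil1 with PA, −0.082 to 0.0084 for Lig3, −0.12 to 0.10 for Neil1 and −0.14 to 0.25 for Ung with NTP over PA, and −0.042 to 0.52 for Mutyh with NTP over LA.

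The causes were not tested. Depth limits Mutyh most, at 14 to 102 counts. The 35 called values of named genes outside the members lost their call 68 times with the same sign and 4 times with the sign changed over the 12 alternatives that kept all libraries, and 27 times over the 10 that left a library out. Beside the GC trend, limma on log2(FPKM + 1) ended calls of Neil2, Mbd4, Aptx, Pold1, Aplf, Pms1, Ccnb1, Mki67, Mcm5 and Ccna2, limma on log2(FPKM + 0.1) those of Neil2, Aptx and Pms1, library-size scaling those of Neil2, Ssbp1 and Pms1, the FPKM filter 1 of Neil2, and the length trend those of Pold4, Ercc1, Phlda3 and Mki67.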
